A study of Bos taurus with 6 samples.

Results

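The genes described here encode the subunits of the mitochondrial respiratory chain and of ATP synthase, as measured in bovine granulosa cells. They were chosen by gene symbol alone, as all array probes annotated with a symbol that starts with NDUFA, NDUFB, NDUFC, NDUFS, NDUFV, UQCR, COX4, COX5, COX6, COX7, COX8 or ATP5, or that is SDHA, SDHB, SDHC, SDHD or CYC1, without the assembly factors named NDUFAF. This gave 82 genes with 127 probes, of 15216 named genes and 43794 probes on the array. Of these, 78 genes were above background in all arrays of at least 1 age group and were tested, among 8932 genes tested in all.

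The respiratory chain passes electrons from NADH and succinate to oxygen and pumps protons across the inner mitochondrial membrane. Complex I oxidises NADH, complex II oxidises succinate, complex III hands the electrons to cytochrome c, and complex IV (cytochrome c oxidase) passes them to oxygen. ATP synthase, also called complex V, uses the proton gradient to make ATP. Granulosa cells line the ovarian follicle, and after the surge of luteinizing hormone (LH) they turn to progesterone synthesis, whose first step takes place inside mitochondria.

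The study compared granulosa cells of the preovulatory dominant follicle between aged and young Hereford cows. The 3 aged cows (13, 110 and 126) were multiparous and the 3 young cows (11, 7 and 184) were nulliparous heifers; their ages in years are not given in the sources used here. All 6 cows had the same treatment: ovulation was synchronised with prostaglandin F2 alpha, 25 mg of LH was given on day 6, and follicle collection followed 24 h after it, on day 7. Before labelling, RNA was amplified in a linear procedure. For hybridisation, 1 aged and 1 young cow shared a 2-colour array, and the dyes were exchanged on a further array, which gave 3 pairs and 6 arrays. The labels speak of mothers and daughters among the cows, without saying that the cows of an array are such a pair. Per the labels, each follicle was either aspirated or taken from an excised ovary, and the method used for each cow is not given. Pairs are named by their aged cow. A value below is the log2 ratio of aged over young, averaged over both arrays of a pair, so that 1 is a 2-fold difference. A level is the log2 signal of 1 cow, which compares cows for a given gene only. The pairs were 13 with 11, 110 with 7, and 126 with 184. Where 3 ratios are listed they follow this order, with n = 3 pairs throughout and errors as SD over the pairs.

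Some of the samples differed in the signal of cell type marker genes. Whether they differed in the cells they held was not tested. The summed signal of 15 epithelial markers on the array was 16.98 and 17.06 (log2) in young cows 11 and 7, against 13.80 in young cow 184 and 12.65 to 14.14 in aged cows. Of the 9 epithelial markers tested, 8 were lower in aged cow 13, 9 in cow 110 and 3 in cow 126, with median ratios of -2.54, -2.86 and 0.08. The 14 granulosa markers summed to 13.00 in young cow 11 and to 16.27 to 17.07 in the other 5 cows. Of the 9 granulosa markers tested, 9 were higher in aged cow 13, 6 in cow 110 and 5 in cow 126, with median ratios of 3.74, 0.21 and 0.14. The granulosa markers FOXL2 and NR5A1 were near background, FOXL2 with signal above it in 1 aged and 0 young channels and NR5A1 in 4 of 6 channels of either age group. Of 16 leukocyte markers, the summed level was highest in aged cow 126 (15.80) and lay between 13.50 and 14.93 in the others. Theca and stroma markers were at 12.27 to 13.39 in aged and 13.52 to 13.63 in young cows, erythrocyte markers at 10.94 to 12.02 and 11.34 to 12.93, and endothelial and oocyte markers at 11.63 to 11.84 in all 6 cows. By slide numbers in the scan names, the arrays of aged cows 13 and 110 were on 1 slide, and the arrays of cow 126 were on separate slides. The results below are therefore given for each pair, and without the pair where it decides a value.

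As a group, the subunit genes were higher in the aged cow in pairs 13 and 110 and not in pair 126. Over the 78 genes, the pair medians were 0.84 (cow 13), 0.66 (cow 110) and -0.0003 (cow 126). For all genes tested they were 0.02, 0.03 and 0.03. With median centring of each array in place of loess normalisation the subunit medians were 0.88, 0.90 and 0.34, so that pair 126 was then also above 0, and all genes were at -0.01, 0.01 and 0.20. The mean of the 3 pairs had a median of 0.47 over the subunit genes, which is 1.38-fold (SD of the 3 pair medians 0.44), and of 0.06 over all genes. The median was 0.30 without pair 13, 0.39 without pair 110 and 0.71 without pair 126, which leaves the arrays of 1 slide. With 3 pairs the smallest two-sided p of an exact sign-flip permutation test is 0.25, so a median over the list could not pass a threshold of 0.05. In bulk samples such as these, less RNA per cell and fewer cells of the type that makes it cannot be told apart. Pair 126, the 1 pair without a cow of high epithelial markers, is also the 1 pair whose median was near 0. The part of the marker differences in these medians was not tested.

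Counted gene by gene, 69 of 78 subunit genes were higher in aged cow 13, where 54.1% of all genes tested were. In aged cow 110 it was 65 of 78, with 54.7% of all genes. In aged cow 126 it was 39 of 78, with 54.2% of all genes, a share near the background. At least 2-fold higher were 33 subunit genes in aged cow 13 (10.9% of all genes), 24 in cow 110 (11.1%) and 0 in cow 126 (5.16%). At least 2-fold lower were 2, 1 and 0 subunit genes, against 7%, 9.12% and 3.76% of all genes. Both aged cows 13 and 110 were higher for 60 subunit genes (38.8% of all genes) and lower for 4 (30% of all genes). A pattern of higher in both of these cows and lower in cow 126 was found for 31 subunit genes, with 16.2% of all genes.

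All 3 pairs had the aged cow higher for 29 of 78 subunit genes, which is 37.2%, against a background of 22.6% of all genes tested. The aged cow was lower in all 3 pairs for 0 subunit genes, against 16.1%. The 78 genes include 6 that passed the background filter through the aged cows only, among them NDUFB4 and NDUFV1. Where both age groups had to be above background, the count of genes higher in all 3 pairs was 25 of 72, against 19.3% of all genes. With median centring it was 55 of 78, against 29.8%, and on the arrays with the aged cow in Cy5 alone it was 18 of 78, against 25.7%, which is no more than the background. On all 6 arrays 11 subunit genes were higher in the aged cow, which is 14.1% and near the background of 12.2%, and 0 were lower (6.33%). The levels of the 3 aged cows were all above those of the 3 young cows for 20 subunit genes, 25.6% against 12.2% of all genes, and all below for 0 (6%). Of these 20, 12 belong to complex I, 4 to complex IV and 4 to complex V. The 20 include NDUFAB1, NDUFB4 and NDUFV1, which passed the background filter through the aged cows only. Neither this count nor the count on all 6 arrays was redone with both age groups above background. By limma with Benjamini-Hochberg adjustment over all 20595 probes kept, 0 genes passed an adjusted p of 0.05 (0% of all genes). Adjusted p-values started at 0.461. Taking an unadjusted p under 0.05, 11 subunit genes were higher and 0 lower in aged cows, where 7.58% and 4% of all genes were. In either direction the count of 11 stands against 11.6% of all genes. With both age groups above background it was 9 of 72, against 11.0% of all genes. It was 7, 6 and 43 without pairs 13, 110 and 126, against 9.49%, 3.29% and 17.6% of all genes. The authors' deposited table of processed log2 ratios gave a median of 0.50 over the same 78 genes. Its pair medians for them were 0.68, 0.79 and -0.09. By that table the aged cow exceeded the young cow in each of the 3 pairs for 24 subunit genes, against 18.5% of all genes. The reverse held for 0 subunit genes, against 14.8%.

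**Figure D1:**
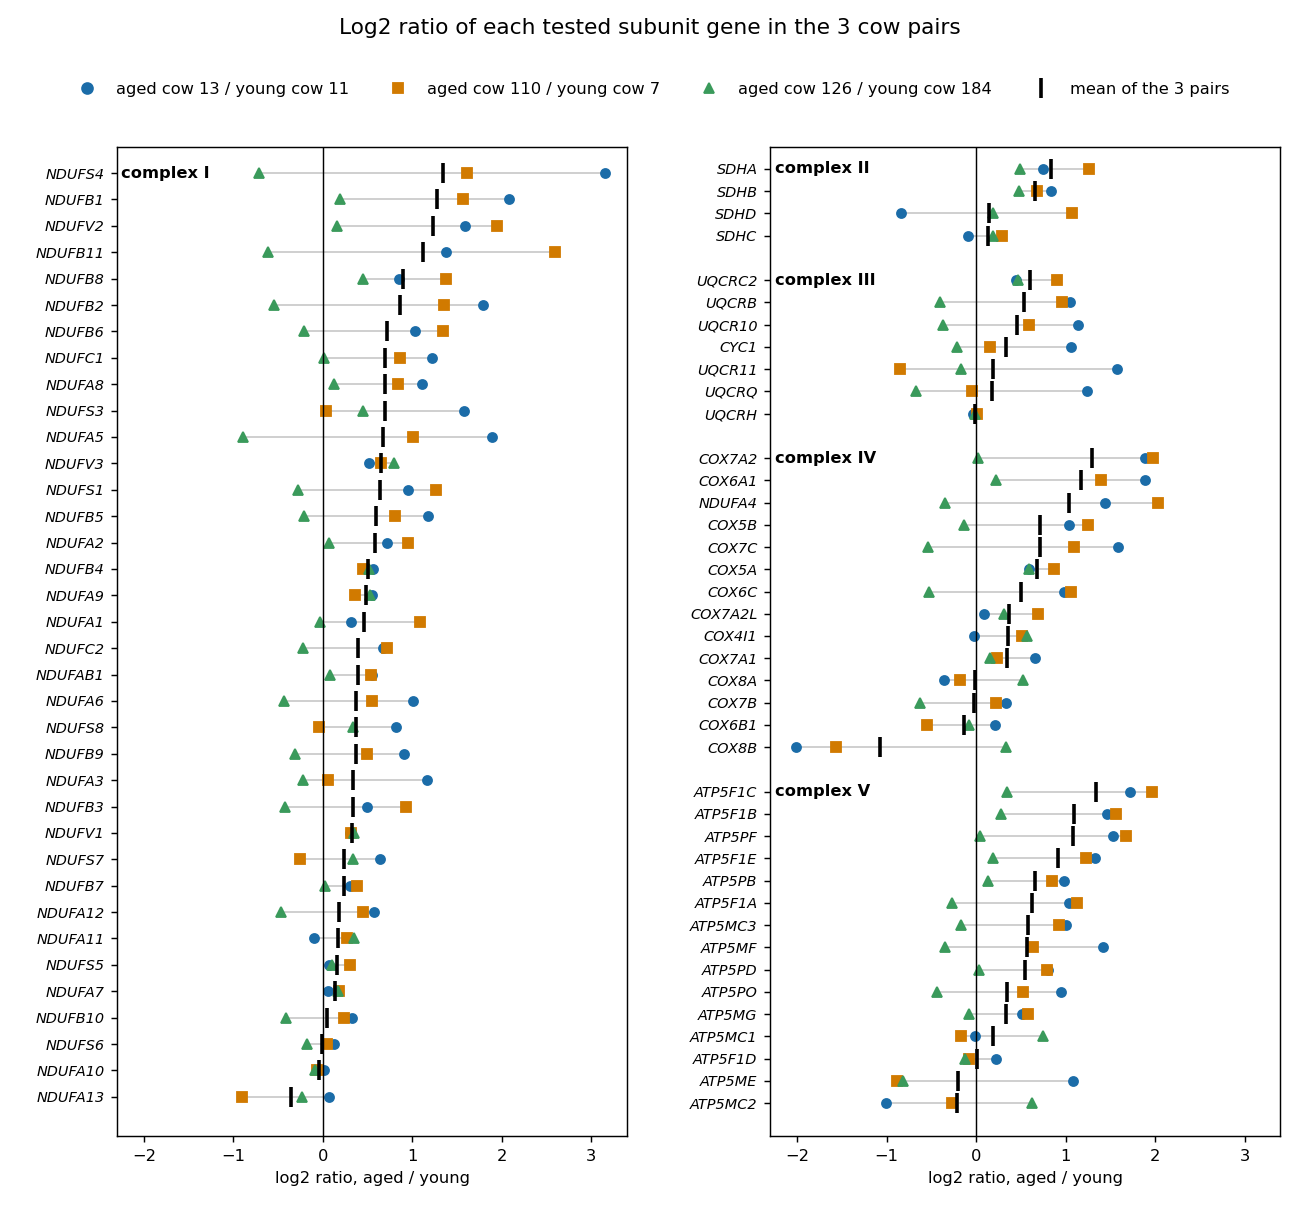
Log2 ratio of aged over young (horizontal axis) for each of the tested genes that belong to a complex, with 1 symbol per cow pair and a black bar at the mean of the 3 pairs. Circles and squares, pairs 13 and 110, lie mostly right of 0, and triangles, pair 126, lie on both sides of it.

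By complex, the mean ratios had medians of 0.42 for the 36 genes of complex I, 0.40 for the 4 of complex II, 0.33 for the 7 tested of complex III, 0.44 for the 14 tested of complex IV and 0.57 for the 15 of complex V. The complexes thus differed by less than the pairs did, whose medians had SDs of 0.32 to 0.65 within a complex. In pair 13 the medians ran from 0.33 in complex II to 1.06 in complex III. In pair 110 they ran from 0.15 in complex III to 0.88 in complex II. In pair 126 complex III was at -0.21 and complex II at 0.33, with complexes I, IV and V at -0.01, 0.09 and 0.04. Without pair 13 the median of complex III was -0.0042. In the authors' deposited table the medians of complexes I to V were 0.42, 0.28, 0.26, 0.57 and 0.59. Against the 22.6% of all genes that were higher in all 3 pairs, the count was 15 of 36 (41.7%) in complex I, 2 of 4 in complex II, 1 of 7 (14.3%) in complex III, 5 of 14 (35.7%) in complex IV and 6 of 15 (40.0%) in complex V. The 15 of complex I include NDUFAB1, NDUFB4, NDUFB7 and NDUFV1, which passed the background filter through the aged cows only. These counts by complex were not redone with both age groups above background.

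**Figure D2:**
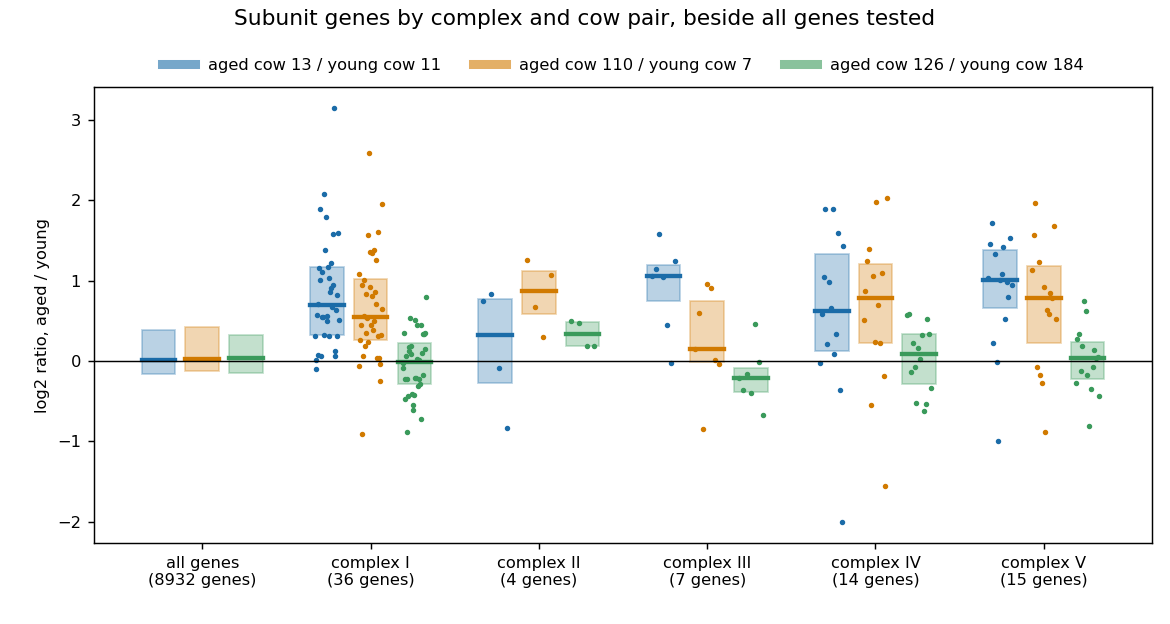
Log2 ratio of aged over young (vertical axis) in each cow pair for all 8932 genes tested and for the genes of each complex. Boxes span the middle 50% of genes with a line at the median, and each dot is 1 subunit gene. The medians of all genes lie between 0.02 and 0.03, and those of complex V at 1.0, 0.79 and 0.04.

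Complex I is the largest of the complexes, and its 6 measured core subunits carry the electron path from NADH to quinone. Their median ratio was 0.51, with 0.88, 0.18 and 0.34 by pair. NDUFV1, the flavin subunit that takes electrons from NADH, was at 0.31, 0.32 and 0.35 (mean 0.32 ± 0.02 SD, adjusted p = 0.461 by limma). Its signal was low and passed background in 4 of 6 channels of young cows, so that the ratio may be compressed. Levels of NDUFV1 were 8.69, 8.73 and 8.74 in aged cows 13, 110 and 126 and 8.38, 8.42 and 8.39 in young cows 11, 7 and 184, without overlap. NDUFV2, an iron-sulfur subunit of the same module, was at 1.59, 1.95 and 0.15 (mean 1.23 ± 0.95). NDUFS1, the largest iron-sulfur subunit, was at 0.95, 1.26 and -0.28, and its 3 probes had means between 0.57 and 0.83. Its dimmer probes were at 0.08 and 0.04 in pair 126, so its direction there depends on the probe. The core subunits NDUFS3, NDUFS7 and NDUFS8 had means of 0.69, 0.24 and 0.37. By its brightest probe each was highest in pair 13 (1.58, 0.63 and 0.82) and lowest in pair 110 (0.04, -0.25 and -0.04). The dim second probe of NDUFS3 was at 0.40, 0.13 and 0.49, and the dimmest of NDUFS7 at 0.08, -0.11 and 0.09. The order of pairs 13 and 126 thus depends on the probe for both. For these 3 genes the ratio in pair 110 was thus near or below 0, while most of the complex was above 0 there.

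The 30 accessory subunits of complex I, which surround the core, had a median of 0.42, with 0.62, 0.60 and -0.13 by pair. NDUFB4 had the smallest unadjusted p of all subunit genes, with ratios of 0.56, 0.45 and 0.51 (mean 0.51 ± 0.06, adjusted p = 0.461 by limma). It was dim and passed the background filter through the aged cows only, with 5 of 6 channels of young cows above background. Its levels were 9.39, 8.89 and 9.01 in the aged and 8.82, 8.45 and 8.50 in the young cows. Each aged cow was above each young cow for NDUFB4, though aged cow 110 was only just above young cow 11. NDUFV3 (0.51, 0.65 and 0.80) and NDUFA9 (0.55, 0.35 and 0.53) had SDs over pairs of 0.14 and 0.11, with levels that did not overlap between age groups. NDUFB8 was at 0.85, 1.38 and 0.45 (mean 0.89 ± 0.46) and NDUFB1 at 2.07, 1.56 and 0.19 (mean 1.27 ± 0.98), both higher in the aged cow on all 6 arrays. NDUFS4, an accessory subunit whose loss in humans causes Leigh syndrome, had the largest mean of the complex (1.34 ± 1.95) and also the largest spread. Its levels were 13.85, 13.17 and 12.07 in the aged and 10.70, 11.57 and 12.79 in the young cows. The pair of cow 126 thus went against the other 2, with ratios of 3.15, 1.61 and -0.72, and the second probe of NDUFS4 had a like mean of 1.47. NDUFB11 likewise was at 1.38, 2.59 and -0.62. At the lower end were NDUFA13 (-0.36 ± 0.50), NDUFA10 (-0.05 ± 0.05), NDUFS6 (-0.01 ± 0.16) and NDUFB10 (0.05 ± 0.40). NDUFA10 and NDUFS6 were dim, and the 2 probes of NDUFA10 differed in sign (-0.05 and 0.06).

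**Figure D3:**
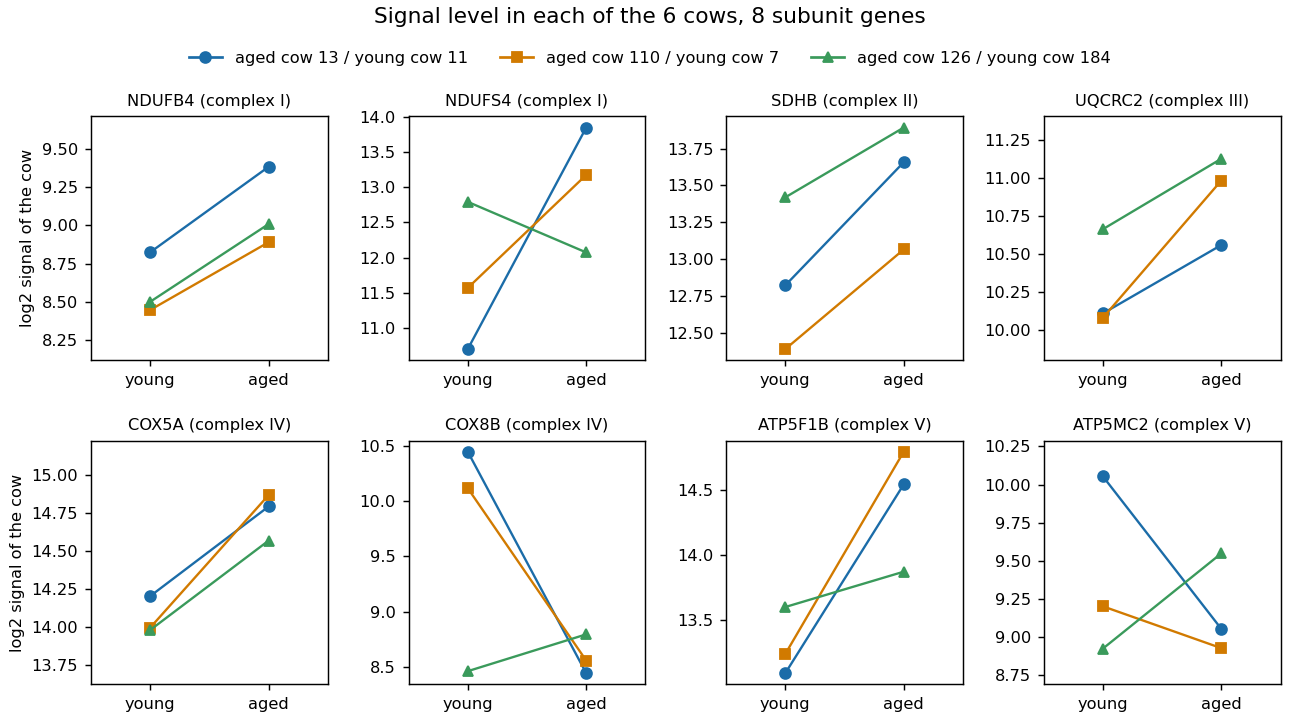
Level (log2 signal, vertical axis) of 8 subunit genes in each of the 6 cows, with a line joining the young and the aged cow of a pair. NDUFB4, SDHB, UQCRC2, COX5A and ATP5F1B go up from young to aged in all 3 pairs; NDUFS4 goes down in pair 126 and up in the other 2 pairs, and COX8B and ATP5MC2 go up in pair 126 and down in the other 2. The vertical axes differ between genes, which cannot be compared in level.

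Complex II also serves the tricarboxylic acid cycle. Its catalytic subunits SDHA and SDHB were higher in the aged cow on all 6 arrays, and its membrane anchors SDHC and SDHD were not. SDHA, the flavoprotein that oxidises succinate, was at 0.74, 1.26 and 0.49 (mean 0.83 ± 0.39, 1.78-fold, adjusted p = 0.461 by limma). Its levels were 11.41, 11.55 and 10.66 in aged cows 13, 110 and 126 and 10.67, 10.29 and 10.16 in young cows 11, 7 and 184. The groups met at aged cow 126 and young cow 11, which had nearly the same level. SDHB, the iron-sulfur subunit, was at 0.84, 0.68 and 0.47 (mean 0.66 ± 0.18, 1.58-fold), and its second probe had a mean of 0.55. Its levels were 13.66, 13.07 and 13.89 in the aged and 12.82, 12.39 and 13.42 in the young cows, which overlapped. SDHC was at -0.09, 0.29 and 0.18 and SDHD at -0.84, 1.07 and 0.19, so that neither had 1 direction. Both anchors were below 0 in pair 13 only. Complex II was the only complex in which all tested genes were higher in pair 126. The difference between the catalytic and anchor subunits was not tested.

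Complex III had the widest spread between pairs of the 5 complexes (SD of its pair medians 0.65), while the mean ratios of its genes lay between -0.01 and 0.60. UQCRC2, a core protein of the complex, was at 0.45, 0.90 and 0.46 (mean 0.60 ± 0.26, 1.52-fold, adjusted p = 0.461 by limma), and its levels were 10.56, 10.98 and 11.12 in the aged and 10.11, 10.08 and 10.66 in the young cows. It was the 1 gene of this complex that was higher in all 3 pairs. CYC1, which encodes cytochrome c1, was at 1.06, 0.15 and -0.21 (mean 0.33 ± 0.65) by its brighter probe, while the other probe had a mean of -0.55, so that no direction can be given for it. All 5 small subunits were lower in aged cow 126 than in its pair cow. The quinone-binding UQCRB (1.04, 0.96 and -0.40) and UQCR10 (1.14, 0.59 and -0.36) had the higher means of the 5, at 0.53 and 0.46. UQCRQ (1.24, -0.04 and -0.68) and UQCR11 (1.58, -0.84 and -0.16) had means of 0.18 and 0.19, and both were below 0 without pair 13. The hinge protein UQCRH was dim and near 0 (-0.01 ± 0.02). UQCRC1 was not well above background in either age group, with signal above it in 4 aged and 3 young channels of 6 each, and UQCRFS1, the Rieske protein, was not analysed here. The subunits of complexes I, III, IV and V that mitochondrial DNA encodes were likewise not analysed here.

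In complex IV, the 11 subunits that most tissues use had a median of 0.68, with 0.99, 1.06 and -0.08 by pair. COX5A was at 0.59, 0.87 and 0.59 (mean 0.68 ± 0.16, 1.60-fold, adjusted p = 0.461 by limma) by its brightest probe. Its levels were 14.79, 14.87 and 14.57 in the aged and between 13.98 and 14.20 in the young cows, without overlap. The other 3 probes of COX5A had means of 0.43, 0.14 and 0.04, and only the first of these was higher in the aged cow on all 6 arrays, so the value of COX5A depends on the probe. COX7A2, the common form of subunit 7A, was at 1.89, 1.97 and 0.02 (mean 1.29 ± 1.11), and its second probe at 0.96. COX6A1, the common form of subunit 6A, was at 1.89, 1.40 and 0.22 (mean 1.17 ± 0.86), and its 3 probes had means of 0.94 to 1.17. NDUFA4, a subunit of complex IV once counted to complex I, was at 1.44, 2.03 and -0.34. COX5B (1.04, 1.25 and -0.13), COX7C (1.59, 1.09 and -0.54) and COX6C (0.99, 1.06 and -0.52) were likewise above 0 in pairs 13 and 110 and below 0 in pair 126. COX4I1, the common form of subunit 4, was instead near 0 in pair 13, at -0.02, 0.52 and 0.57. COX8A (-0.01 ± 0.47), COX7B (-0.02 ± 0.53) and COX6B1 (-0.14 ± 0.38) had means near 0 and pairs on both sides of it.

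The tissue-restricted forms of complex IV differed among themselves. COX8B, the heart and muscle form of subunit 8, had the lowest mean of all subunit genes, at -1.08 ± 1.24 (0.47-fold, adjusted p = 0.592 by limma). Its levels were 8.44, 8.56 and 8.79 in aged cows 13, 110 and 126 and 10.45, 10.12 and 8.46 in young cows 11, 7 and 184. Only young cows 11 and 7 were high, and these are the 2 cows with the high epithelial markers; the part of those markers in it was not tested. COX7A1, the heart and muscle form of subunit 7A, was dim, at 0.66, 0.23 and 0.16. COX6A2 and COX6B2, the muscle and testis forms, and NDUFA4L2, a relative of NDUFA4 induced by low oxygen, were not well above background in either age group. COX7A2L, a relative of subunit 7A that helps complexes III and IV join into supercomplexes, was at 0.09, 0.69 and 0.32 (mean 0.37 ± 0.30).

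ATP synthase consists of a catalytic F1 head on a central stalk, a peripheral stalk, and a membrane part with a ring of c subunits. The 5 genes of the head and central stalk had a median of 0.92, with 1.33, 1.23 and 0.19 by pair. ATP5F1B, the beta subunit that holds the catalytic sites, was at 1.46, 1.56 and 0.27 (mean 1.10 ± 0.72, 2.14-fold, adjusted p = 0.473 by limma). Its levels were 14.54, 14.80 and 13.87 in the aged and 13.09, 13.23 and 13.60 in the young cows, without overlap. ATP5F1C, the gamma subunit of the central stalk, was at 1.72, 1.97 and 0.34 (mean 1.34 ± 0.88, 2.53-fold), and its second probe had a mean of 1.16. Levels of ATP5F1C were 14.70, 14.38 and 13.76 in the aged and 12.99, 12.41 and 13.42 in the young cows, again without overlap. The epsilon subunit ATP5F1E was at 1.33, 1.23 and 0.19, and the alpha subunit ATP5F1A at 1.03, 1.13 and -0.27. The delta subunit ATP5F1D was dim and near 0 (0.01 ± 0.19).

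The 4 genes of the peripheral stalk, which holds the head still, had a median of 0.60. ATP5PF was at 1.53, 1.68 and 0.05, ATP5PB at 0.98, 0.85 and 0.13, ATP5PD at 0.80, 0.79 and 0.04, and ATP5PO, the subunit at the top of the stalk, at 0.95, 0.52 and -0.44. The second probe of ATP5PD, of nearly the same signal, was at 0.58, 0.21 and -0.40 (mean 0.13). The direction of ATP5PD in pair 126 thus depends on the probe. The membrane subunits ATP5MF (1.42, 0.63 and -0.35) and ATP5MG (0.52, 0.58 and -0.08) had means of 0.57 and 0.34. ATP5ME was at 1.09, -0.89 and -0.81. The c subunit is encoded by 3 genes whose mature proteins are identical, and these genes did not go together. ATP5MC3 was at 1.0, 0.92 and -0.17, like most of the complex. ATP5MC1 was at -0.01, -0.17 and 0.75 by its brightest probe, and its 3 probes had means of 0.19 to 0.47. The other 2 probes were at 0.39 and 0.95 in pair 13 and at 0.70 and 0.50 in pair 126, so that the order of these pairs depends on the probe. ATP5MC2 was at -1.0, -0.27 and 0.63, with levels of 9.05, 8.93 and 9.55 in the aged and 10.05, 9.20 and 8.92 in the young cows. The pair of cow 126 was thus the high one for ATP5MC2 and the low one for ATP5MC3. The rule also reached DMAC2L, an ATP synthase factor annotated under its old symbol ATP5S, and EMC8, a subunit of a protein complex of the endoplasmic reticulum annotated as COX4NB, which were at 1.25, 2.09 and -0.52 and at 1.22, 0.81 and -0.17 and belong to no complex above.

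Across the 78 genes, pairs 13 and 110 were alike and pair 126 was not. As a description over genes, which are not independent, Pearson's r was 0.61 between pairs 13 and 110, -0.41 between pairs 13 and 126 and -0.13 between pairs 110 and 126. Over all kept probes r was 0.49, -0.15 and 0.03 in the same order, so this likeness was not particular to the subunit genes. The arrays of cows 13 and 110 shared a slide. Between the 2 dye orientations of a pair, r was 0.83, 0.87 and 0.47, so that the values of pair 126 were also the least repeatable. Pair 126 was the least repeatable over all kept probes too, with r of 0.85, 0.84 and 0.61. The median of the subunit genes in pair 126 was -0.19 on the array with the aged cow in Cy5 and 0.12 on that with the aged cow in Cy3.

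**Figure D4:**
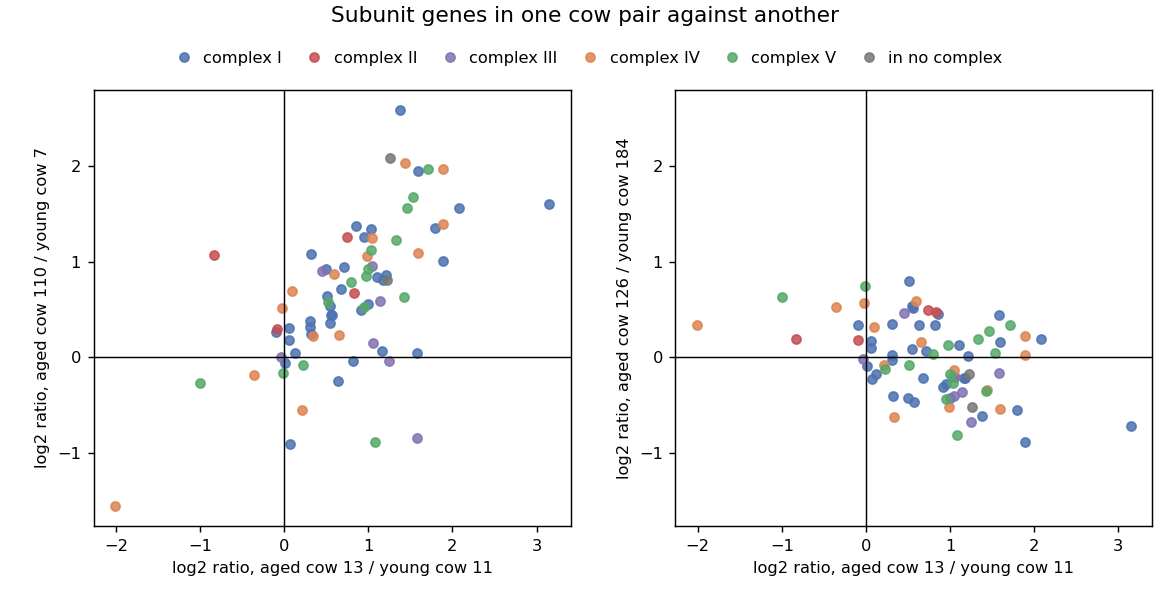
Log2 ratio of the 78 subunit genes in pair 13 (horizontal axis) against pairs 110 (left) and 126 (right), with 1 dot per gene coloured by complex. On the left 60 genes lie above 0 in both pairs; on the right no gene reaches a 2-fold ratio in pair 126.

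By cow, subunit genes were high in aged cows 13 and 110 and low in young cows 11 and 7. The median deviation of the 78 genes from the mean of the 6 cows was 0.43, 0.28 and -0.03 in aged cows 13, 110 and 126 and -0.32, -0.41 and -0.001 in young cows 11, 7 and 184. Over all genes the same medians lay between -0.05 and 0.01. Aged cow 13 was the highest of all cows for 37 subunit genes and aged cow 110 for 16, while young cow 7 was the lowest for 32 and young cow 11 for 22. These counts were not made over all genes, so whether they are particular to the subunit genes cannot be told from them. By their medians, the cows of the third pair lay between the others and close to each other. The low cows 11 and 7 are those with the high epithelial markers, and cow 11 also has the low granulosa markers, while cow 7, with granulosa markers at 16.90, had the lowest median of subunit genes. The part of the markers in these levels was not tested.

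**Figure D5:**
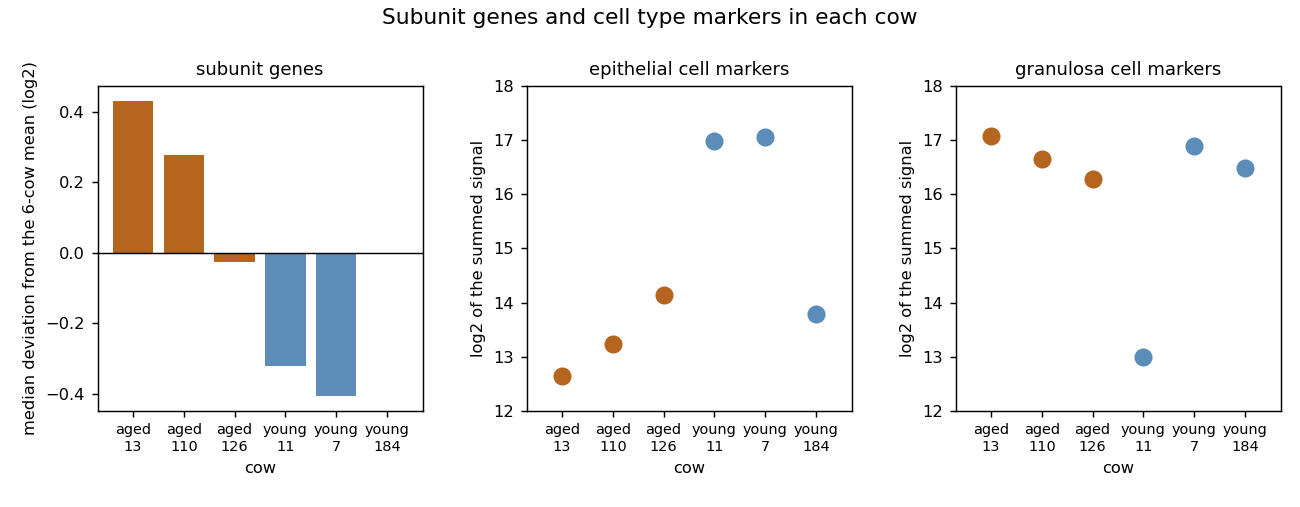
Left, median deviation of the 78 subunit genes from the mean of the 6 cows (log2), with bars from 0. Middle and right, log2 of the summed signal of the epithelial and granulosa markers in each cow. Young cows 11 and 7 lie at -0.32 and -0.41 for the subunit genes and at 16.98 and 17.06 for the epithelial markers.

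Most subunit genes gave a bright signal. Of the 78, 52 were among the brightest 25% of all genes tested and 3 among the dimmest 25%. Within the brightest 25% the median ratio was 0.62 for subunit genes and 0.22 for all genes, and 36.5% of subunit genes against 21.2% of all genes were higher in all 3 pairs. In the next 3 groups of 25%, in order of signal, the subunit genes had medians of 0.34 (14 genes), 0.17 (9 genes) and -0.01 (3 genes), where all genes had 0.18, 0.07 and -0.01. Several probes of a gene mostly gave like values: for the 27 subunit genes with more than 1 kept probe, the range between probes had a median of 0.22, and it was above 0.5 for COX5A, CYC1 and DMAC2L.

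Lists of genes that serve the same machinery had medians from 0.15 to 0.75, and none of their genes passed the adjusted threshold by limma. The median of 0.75 is that of 4 ATP synthase proteins with other symbols, which include DMAC2L, also 1 of the 78 genes above. Their counts stand against 22.6% of all genes higher and 16.1% lower in all 3 pairs, and 7.58% higher and 4% lower at an unadjusted p under 0.05. The list counts were not redone with both age groups above background. Assembly factors of the complexes (34 tested of 53 listed) had a median of 0.15, with 11 higher (32.4%) and 2 lower in all 3 pairs, and at an unadjusted p under 0.05 4 were higher and 1 lower. TMEM70, which helps assemble ATP synthase, was at 0.48, 0.52 and 0.33. It was dim and passed the background filter through the aged cows only, with 3 of 6 channels of young cows above background. BCS1L, which inserts the Rieske protein into complex III, was at 0.27, 0.41 and 0.40, and COX14, an assembly factor of complex IV, at 0.40, 0.46 and 0.28. SCO1, a copper chaperone of complex IV, went the other way at -0.55, -1.23 and -1.44 (mean -1.07 ± 0.47), lower in the aged cow on all 6 arrays. The mobile carriers and enzymes of coenzyme Q synthesis (15 tested of 19) had a median of 0.26, with 5 higher (33.3%) and 0 lower in all 3 pairs. The 5 include COQ2, which passed the background filter through the aged cows only, with 2 of 6 channels of young cows above background. COQ9 (0.23, 0.32 and 0.37) and COQ6 (0.35, 0.21 and 0.70) had means of 0.31 and 0.42. COQ3 (1.28, 1.24 and 0.09) and COQ7 (0.32, 0.43 and 0.03) had means of 0.87 and 0.26. Cytochrome c itself, CYCS, was at 4.31, 1.02 and -0.35; it was outside the rule for named genes and was chosen with its values known.

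The tricarboxylic acid cycle and pyruvate dehydrogenase genes (23 tested of 27) had a median of 0.47, as the subunit genes did, with 0.51, 0.52 and -0.24 by pair. In all 3 pairs 7 were higher (30.4%) and 2 lower, and 1 was higher at an unadjusted p under 0.05. The 7 include OGDH, which passed the background filter through the aged cows only. PDHB, a subunit of pyruvate dehydrogenase, was at 0.45, 0.25 and 0.17, and IDH3G, of isocitrate dehydrogenase, at 0.17, 0.27 and 0.59. Of the kinases that switch pyruvate dehydrogenase off, PDK3 was at 2.60, 3.01 and 0.13 and PDK1 at -0.30, -1.42 and -2.04. Of the 14 measured exchange and uncoupling genes 10 were tested, with a median of 0.30, and 4 were higher (40.0%) and 0 lower in all 3 pairs. The 4 include SLC25A27, which passed the background filter through the aged cows only. The ADP/ATP carrier SLC25A5 was at 1.11, 0.98 and 0.63 (mean 0.91 ± 0.25) and higher in the aged cow on all 6 arrays, while its relative SLC25A4 was at 0.52, 0.69 and -0.15. The outer membrane channels VDAC1 (1.48, 0.25 and 1.01) and VDAC3 (1.08, 1.33 and 0.13) had means of 0.92 and 0.84. The ATP synthase proteins that carry other symbols, ATP5MK, ATP5MJ and the inhibitor ATP5IF1, had means of 0.92, 0.37 and 0.57.

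Regulators of mitochondrial biogenesis and mtDNA maintenance (12 tested of 19) had a median of 0.19, with 2 higher (16.7%, below the share of all genes) and 1 lower in all 3 pairs, and 1 lower at an unadjusted p under 0.05. NRF1, a transcription factor of many respiratory chain genes, was at -0.40, -1.36 and -1.56 (mean -1.11 ± 0.62) and lower in the aged cow on all 6 arrays. ESRRA, a nuclear receptor that acts with PGC-1 coactivators, was at -1.44, -1.02 and 0.15. PPRC1, a coactivator, and GABPB1, a subunit of the factor NRF2, had means of 0.24 and 0.28. Of these, PPRC1 passed the background filter through the aged cows only, with 4 of 6 channels of young cows above background. PPARGC1A was near background and near 0 in all pairs (0.03, -0.06 and -0.11), and was also named with its values known.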

How the data were processed

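Two-colour oligonucleotide arrays (EMBV3) measured granulosa cell RNA of 3 aged and 3 young cows on 6 arrays. Per the file headers, the deposited scanner files hold mean and median spot intensity and local background of both channels on a linear scale, and another column that the authors' image software set to mark ignored spots. The authors also deposited a table of log2 values, whose columns ran as aged over young on all arrays (r 0.675 to 0.937 with the scanner values) with medians of -0.0092 to 0.0036. The submitters' processing notes name limma; the authors' background correction is not given in the sources used here. The table was used as an alternative, because scanner files allow filtering on background.

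Spot means were background-corrected by normexp (offset 50) and normalised by loess within arrays in limma 3.58.1 (R 4.3.3), with control and ignored spots at weight 0. The mean of both arrays of a pair entered lmFit and eBayes (3 values a probe), two-sided, with Benjamini-Hochberg adjustment over 20595 kept probes. The pairing comes from the shared array. A probe was kept where all 6 channels of 1 age group lay above the negative controls (mean + 2 SD over 153 spots). Earlier processing of these data used 1 control spot that the image software had ignored on an array of cow 126 (SD 99.2 with it, 11.3 without); it was left out here. Between 49.3% and 71.6% of probes per channel exceeded background. The number of arrays limits the precision.

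A gene was represented by its brightest probe. Platform symbols were updated through the RefSeq gene table (19 of 82 subunit symbols). Levels per cow are log2 channel signals after loess and Aquantile normalisation. The members and lists were chosen with earlier results of these data known. Genes named were, per complex, the 4 highest and 4 lowest, the 10 with the smallest p and 1 sign on all 6 arrays, a set of catalytic subunits and isoforms, genes whose probes differ in sign, and up to 4 of each list; NDUFS3, NDUFS7, NDUFS8, the rest of complexes IV and V, DMAC2L and EMC8 were added to complete groups. NDUFAB1, NDUFB7, COQ2, OGDH and SLC25A27 were named only for how they passed the background filter. No value was imputed for a subunit gene (0 probes), and 0 other columns of sample values were present. The fit was checked on simulated data. The alternatives were the authors' values, spot medians, other background, centring and filter settings, each pair left out, other blocks, the mean over probes, 1 dye orientation and the ignored control spot.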

Additional observations from a re-analysis of the deposited data

How the results depend on the processing

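Of 145 values of the 9 summary results under 17 alternatives, 134 stayed within the spread between pairs or within 1.5 times the count. The median over subunit genes stayed above 0 throughout, from 0.30 without the pair of aged cow 13 to 0.74 with median centring, which also moved the pair of cow 126 to 0.34 (all genes 0.20 in that pair). The count of genes higher in all 3 pairs was 29, against 22.6% of all genes. It was 55 with median centring (29.8% of all genes) and 18 on the arrays with aged cows in Cy5 (25.7% of all genes). With a pair left out, only the remaining pairs had to be higher, which also raised the share of all genes. The counts were then 33, 31 and 60 without pairs 13, 110 and 126, against 33.9%, 29.0% and 38.8% of all genes. The count at an unadjusted p under 0.05 was 11, against 11.6% of all genes. It was 6 to 43 with a pair left out (3.29% to 17.6% of all genes) and 33 with median centring (18.04%). With a dye term and the pair as a random block it was 23 (16.42% of all genes). On the arrays with aged cows in Cy3 it was also 23 (14.21% of all genes). The share of all genes thus rose as well in these last 3 settings. A paired analysis was the main one, since both cows share an array. With no replicate block, the 6 arrays count as replicates. The count at an unadjusted p under 0.05 was then 31 (27.5% of all genes), and 362 of the 20595 kept probes passed the adjusted threshold. The subunit genes among the 362 probes were not counted. Of the genes named here, the 362 include NDUFA9 (0.48), NDUFB4 (0.51), NDUFV3 (0.65), SDHB (0.66), UQCRC2 (0.60), COX5A (0.68), SLC25A5 (0.91) and TMEM70 (0.44). NDUFB4 and TMEM70 passed the background filter through the aged cows only, with 5 and 3 of 6 channels of young cows above background. With slide as a random block the median was 0.33. The cause of these shifts was not tested, beyond fewer pairs or dependent arrays where the setting itself makes them.

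Of 84 named genes, 18 changed sign under some alternative, mostly genes with means near 0. With a pair left out, the range was -0.10 to 0.071 for ATP5F1D, -0.090 to 0.37 for ATP5MC1, -0.64 to 0.18 for ATP5MC2, -0.85 to 0.14 for ATP5ME, -0.31 to 0.066 for COX6B1, -0.20 to 0.28 for COX7B, -0.27 to 0.17 for COX8A, -0.030 to 0.60 for CYC1, -0.085 to 0.28 for NDUFB10, -0.070 to 0.082 for NDUFS6, -0.33 to 0.63 for SDHD, -0.50 to 0.71 for UQCR11 and -0.36 to 0.60 for UQCRQ. The authors' deposited table reversed COX8A (0.14), NDUFA10 (0.061), NDUFB10 (-0.0017) and SDHC (-0.024), and spot medians COX8A (0.14), NDUFA10 (0.14), NDUFB10 (-0.0020) and SDHC (-0.017). Without background correction ATP5F1D was at -0.022, COX7B at 0.024 and COX8A at 0.0039, and with median centring ATP5F1D at -0.015, COX6B1 at 0.15 and COX8A at 0.30. With slide as a block ATP5F1D was at -0.031, ATP5MC2 at 0.039, COX8A at 0.15, NDUFB10 at -0.089 and UQCRQ at -0.083. The mean over probes gave CYC1 -0.11 and NDUFA10 0.0052. Chosen after seeing the data were the single dye orientations and the ignored control spot. With aged cows in Cy5, ATP5F1D was at -0.24, ATP5MC1 at -0.35, NDUFS7 at -0.39, PPARGC1A at 0.013 and UQCRH at 3e-04, and in Cy3 COX6B1 was at 0.053, COX8A at 0.33, NDUFB10 at -0.020, NDUFS6 at 0.051 and SDHD at -0.14. Dim genes such as NDUFV1, UQCRH and ATP5F1D are limited by signal close to background.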
